A study of Mus musculus with 309 samples.

Results

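Haemoglobins and erythroid genes were followed through bulk RNA-seq of 309 mouse mammary tumours. The 6 genes were taken by symbol from 55291 gene rows: the alpha-globin genes Hba-a1 and Hba-a2, the beta-globin genes Hbb-bs and Hbb-bt, Alas2 and Slc4a1. The tumours came from 24 models and fall into 100 groups of model and treatment, 92 of them with 3 tumours. Untreated tumours numbered 64 (18 models), and the treated arms held 48 tumours with anti-PD1 + anti-CTLA4, 2 antibodies against T cell checkpoints (16 models), 66 with Carboplatin + Paclitaxel, a chemotherapy pair (22 models), 65 with Trametinib, a MEK inhibitor (22 models), and 66 with Erlotinib, an EGFR inhibitor (22 models). The models with a p53RB name were p53RB-426, p53RB-624 and p53RB-626. A further 4 were MMTV-PyMT, MMTV-Neu, C3-TAG and K14-TRT. The KPB names were KPB1-A, KPB1-B and KPB25L, with KPB25L-UV and KPB25L-APOBEC beside it, and the T names T12, T11 and T11-APOBEC. The others were E0771, 4T1 and those known by number (9263, 2336, 2250, 2225, 2224, 2208 and 2153). The labels used here give these names without genotype, host strain, age, dose or day of collection, and they do not say whether a model is 1 clone or how many animals gave the tumours, so p-values measure the spread between these tumours.

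Haemoglobin is the oxygen carrier of red cells and joins alpha-globin and beta-globin chains, each holding a haem group. Alas2 makes the erythroid form of 5-aminolevulinate synthase, the enzyme that starts haem synthesis, and Slc4a1 makes band 3, the anion exchanger and main membrane protein of red cells. Mature red cells have no nucleus but young ones still carry these transcripts, so a tumour sample holds them together with the blood in its vessels. In bulk tissue, fewer cells of a type and less RNA per cell cannot be told apart.

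The globin genes exist as near-identical copies, and their sequences are shown because they decide which values can be read. In the mouse build mm10, Hba-a1 (ENSMUSG00000069919.7) lies at chr11:32283511-32284465 and Hba-a2 (ENSMUSG00000069917.7) at chr11:32296489-32297298, both on the plus strand and with 3 exons. Hbb-bs (ENSMUSG00000052305.6) lies at chr7:103826534-103828096 and Hbb-bt (ENSMUSG00000073940.3) at chr7:103812524-103813996, both on the minus strand and with 3 exons. Alas2 (ENSMUSG00000025270.13) spans chrX:150547375-150570638 on the plus strand with 11 exons, and Slc4a1 (ENSMUSG00000006574.15) spans chr11:102348824-102366203 on the minus strand with 20 exons. The alpha pair differs at 1 of 429 coding bases (C381T) and the beta pair at 1 of 444 (C417T), counted from the first base of the start codon with the base of Hba-a1 or Hbb-bs first. The coding stretches around those differences, from the GENCODE M21 transcripts (bases 351 to 411 of the alpha pair, 384 to 444 of the beta pair), follow 5′ to 3′ with the differing base in capitals.
Hba-a1: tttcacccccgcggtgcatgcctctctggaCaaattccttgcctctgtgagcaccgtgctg
Hba-a2: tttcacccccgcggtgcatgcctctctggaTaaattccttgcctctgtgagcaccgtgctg
Hbb-bs: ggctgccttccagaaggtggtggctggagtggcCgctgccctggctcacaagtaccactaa
Hbb-bt: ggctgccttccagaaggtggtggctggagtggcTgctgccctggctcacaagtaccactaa
The longest run without a difference is 380 bases in the alpha pair and 416 bases in the beta pair. The 3′ untranslated parts were compared position by position from their first base, without alignment. They are identical over the 74 bases that Hba-a1 and Hba-a2 have in common, and 85 of 131 positions differ between Hbb-bs and Hbb-bt. A base gained or lost shifts all later positions, so the second count can overstate how far the copies differ. The values of a single copy are therefore uncertain, and levels are also given as a sum over the alpha-globin and beta-globin copies. Fitted differences are given per copy, so the copies of a pair do not count as separate results.

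Promoters are shown because the genes moved together across tumours. RefSeq (GRCm38.p6) gave a window of 300 bases around the start for 5 of the 6 genes, and Slc4a1 had no entry. GATAA, the core of the site read by GATA factors, and CACCC, the core read by erythroid Krüppel-like factors, were searched on both strands, and their matches do not overlap in the printed bases. Each of the 5 windows held both words, against 12.6% of 32851 promoter windows of the same length, 25.4% for GATAA and 57.5% for CACCC. The printed bases of Hba-a1 recur in Hba-a2 apart from the first few, so the 5 windows are not independent. Whether these words bear on the shared variation was not tested. The word TATAAA was searched likewise and had 1 match each in the windows of Hbb-bt and Alas2, against 13.6% of promoter windows with a match. A match describes letters in a window and is not a site. Only the part of each window upstream of the GENCODE gene start is printed, up to 200 bases. It runs 5′ to 3′ on the gene's strand, with the matches (GATAA or its complement TTATC, and CACCC) in capitals. Further CACCC matches of Hba-a1, Hbb-bs and Alas2 lie outside the printed bases. Those of Hba-a1 and Hbb-bs lie within the annotated gene, and Hbb-bs has no other CACCC match in its window.
Hba-a1 (chr11:32283422-32283510, plus strand): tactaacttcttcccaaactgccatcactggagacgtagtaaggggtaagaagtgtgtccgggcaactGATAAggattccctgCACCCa
Hba-a2 (chr11:32296242-32296441, plus strand): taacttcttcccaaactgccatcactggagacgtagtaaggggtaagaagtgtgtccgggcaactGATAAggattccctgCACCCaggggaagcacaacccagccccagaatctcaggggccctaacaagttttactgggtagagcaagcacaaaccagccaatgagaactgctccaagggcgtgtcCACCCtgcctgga
Hbb-bs (chr7:103828097-103828178, minus strand): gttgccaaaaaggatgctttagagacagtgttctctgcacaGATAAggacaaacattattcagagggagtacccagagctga
Hbb-bt (chr7:103813997-103814173, minus strand): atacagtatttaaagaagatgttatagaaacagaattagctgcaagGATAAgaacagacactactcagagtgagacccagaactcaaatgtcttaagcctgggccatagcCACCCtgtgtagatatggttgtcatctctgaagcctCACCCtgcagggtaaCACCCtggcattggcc
Alas2 (chrX:150547167-150547366, plus strand): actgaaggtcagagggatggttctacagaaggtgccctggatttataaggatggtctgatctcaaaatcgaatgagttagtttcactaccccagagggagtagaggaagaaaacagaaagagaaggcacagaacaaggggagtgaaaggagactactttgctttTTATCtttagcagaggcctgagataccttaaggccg

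Total counts per tumour (M for mega, as in Mb) ranged from 12.1 to 226.2 M with a median of 78.6 M, and the arms differed in depth, with medians of 113 M for antibodies, 103 M for chemotherapy, 76.9 M for untreated, 39.3 M for trametinib and 34.3 M for erlotinib. Tumours carry running library numbers, and in 11 of the 16 models with both arms the antibody and chemotherapy tumours lie more than 160 numbers apart. The 3 KPB25L-UV chemotherapy tumours have library names that begin with KPB25L and were kept under the model of their titles.

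Levels are given as CPM (counts relative to the library total), scaled between tumours by the trimmed mean of M values (TMM). Summed over the 4 globin genes, the level was 27 to 4130 CPM with a median of 169 CPM in untreated tumours, 41.1 to 9310 CPM (median 306) with antibodies, 2.15 to 1840 CPM (median 90.1) with chemotherapy, 8.95 to 663 CPM (median 86.2) with trametinib and 28.6 to 4780 CPM (median 239) with erlotinib. The ranges of all 5 arms overlapped, and each spanned a wide range of levels. Alas2 had medians of 1.84 CPM untreated, 4.38 CPM with antibodies, 1.47 CPM with chemotherapy, 1.18 CPM with trametinib and 3.36 CPM with erlotinib, so its arms stood in the same order as those of the globin sum, antibodies highest and trametinib lowest. Slc4a1 was near the detection limit, with a median of 0.0779 CPM over all tumours, a maximum of 8.23 CPM and no count in 51 of 309 tumours.

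**Figure D1:**
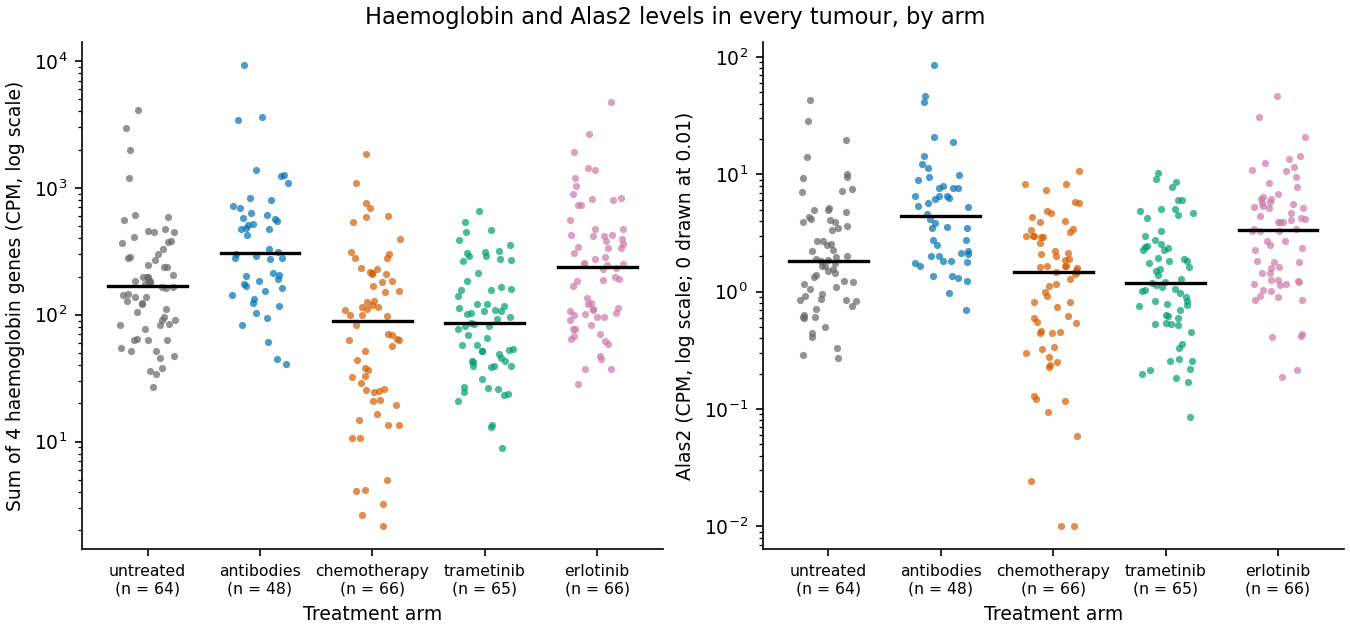
Level of the summed globin genes (left) and of Alas2 (right) in CPM on a log scale, 1 point per tumour and a line at the median of each arm, with the 2 chemotherapy tumours without Alas2 counts drawn at 0.01. Antibody-treated tumours have the highest medians (306 and 4.38 CPM), and all arms overlap.

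Within groups the 4 globin genes and Alas2 varied together. On tumours centred on their group mean, log2 CPM correlated at r = 0.97 between Hba-a1 and Hbb-bs and at 0.79 to 0.97 among the globins and Alas2, against 0.54 to 0.62 for Slc4a1 with the others (Pearson, 309 tumours, a description in which the points share library and depth and the copies share reads). The standard deviation between tumours of a group was 1.07 to 1.35 on the log2 scale for the 6 genes, against a median of 0.33 over 16276 genes. Of the variance of log2 CPM, 20.9 to 28.6% lay within groups and 29.4 to 41.8% between treatments of a model, where the median gene had 11.2% and 14.2%.

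Among untreated tumours, levels differed between models. The 16 models with 3 or more untreated tumours (62 tumours) were compared with edgeR's quasi-likelihood F-test, and all 6 genes passed at an adjusted p (Benjamini-Hochberg) of 5.04e-12 for Hba-a2 to 1.58e-08 for Hbb-bt. The background was as high, with 98.1% of 22779 genes differing between models, so the count says nothing particular to these genes. Mean Alas2 ran from 0.445 CPM in T11-APOBEC to 17 CPM in T12, and mean Hbb-bs from 17.5 CPM in 2208 to 523 CPM in KPB25L. Single tumours carried the highest means. The 3 untreated KPB25L tumours had globin sums of 4135, 95.2 and 64.6 CPM, and the 3 untreated T12 tumours 2982, 267.6 and 332.3 CPM, so 1 tumour of each group stood far above the other two.

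The share of alpha-globin counts that the authors' quantification assigned to Hba-a1 separated the models into 2 ranges. In 12 models (the 7 known by number, 4T1, E0771, T11, T11-APOBEC and T12) the model medians were 34.7 to 43.1%, and in the other 12 they were 82.6 to 96.1%. Apart from the 3 E0771 chemotherapy tumours, single tumours lay between 27.1 and 50% in the first 12 models and between 65.7 and 100% in the others, under every treatment. Those E0771 tumours had shares of 57.3, 91 and 57.4% from 218, 349 and 706 alpha-globin counts. The beta pair showed no such split: the median share of Hbb-bs was 86.5 to 95.7% in the first 12 models and 88.9 to 96.1% in the others. The labels used here name no host strain, and whether an allele of the host or tumour shifts these shares was not tested.

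**Figure D2:**
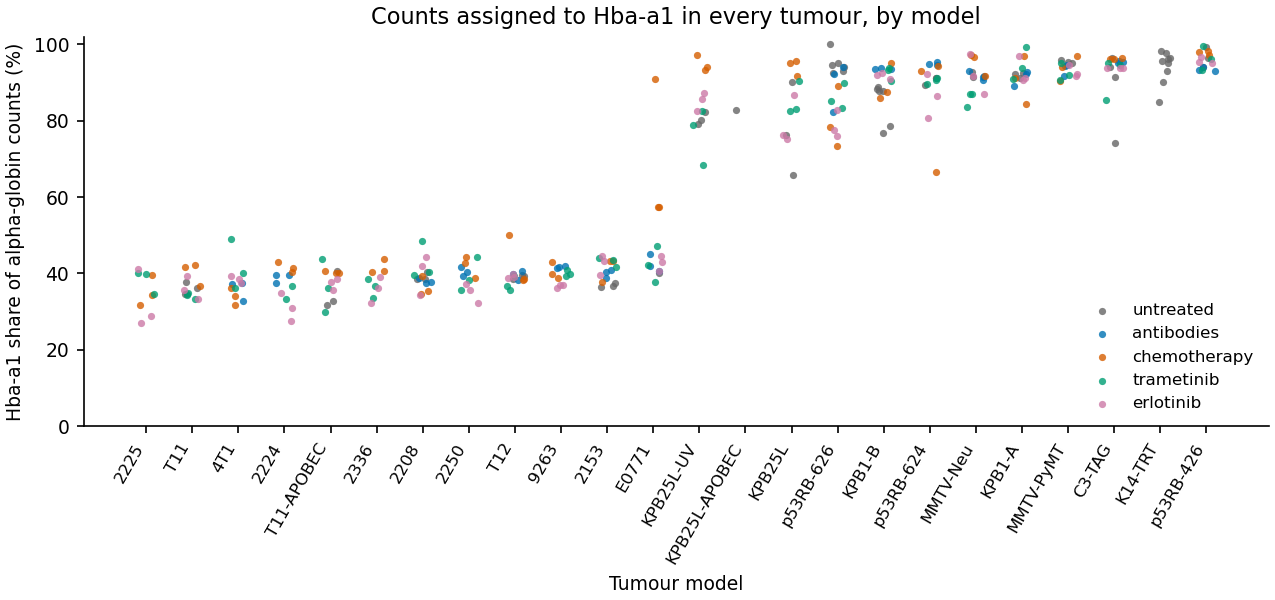
Share of the estimated alpha-globin counts assigned to Hba-a1 in percent, 1 point per tumour coloured by arm, with models ordered by their median. Medians of 12 models lie at 34.7 to 43.1% and those of the other 12 at 82.6 to 96.1%.

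Antibodies were compared with chemotherapy in the 16 models that had both arms, with 48 tumours in each. All 6 genes were higher with antibodies. In this comparison 18.1% of 18705 genes passed an adjusted p of 0.05 in either direction (edgeR's quasi-likelihood test, model as a term), and the ranks of the 6 genes by p were 11 for Alas2, 20 to 63 for the globins and 2177 for Slc4a1.

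Among the alpha-globins, Hba-a1 was at 7.08 to 4630 CPM (median 108) with antibodies and at 0.781 to 677 CPM (median 29.1) with chemotherapy. The arms overlapped, and the fitted difference was 2.18 ± 0.339 (SE) on the log2 scale, 4.53-fold, with an adjusted p of 6.3e-06. Hba-a2 was at 2.64 to 1000 CPM (median 35.2) against 0.365 to 260 CPM (median 6.14), and its fitted difference was 2.18 ± 0.375 with an adjusted p of 3.38e-05 in edgeR's test.

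Among the beta-globins, Hbb-bs was at 20.6 CPM and above (median 116) with antibodies, the highest tumour being in p53RB-426, and at 0.103 to 359 CPM (median 28.9) with chemotherapy. Its difference was 2.28 ± 0.348 on the log2 scale, 4.86-fold, with an adjusted p of 4.11e-06 in edgeR's test. Hbb-bt, the copy with fewer assigned counts, was at 1.73 to 587 CPM (median 11.4) against 0.0114 to 32.8 CPM (median 3.16), a difference of 2.29 ± 0.367 with an adjusted p of 9.8e-06. Each of the 4 globins was higher with antibodies in 15 of 16 models, the exception being C3-TAG.

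Alas2, the haem synthesis enzyme, was at 0.703 to 85.9 CPM (median 4.38) with antibodies and at 0 to 10.8 CPM (median 1.14) with chemotherapy. Its difference was 2.02 ± 0.293 on the log2 scale, 4.06-fold, with an adjusted p of 1.6e-06 in edgeR's test. Its mean log2 CPM was higher in 16 of 16 models, by 0.00 in C3-TAG, where the fitted difference was -0.34. Slc4a1, the red cell anion exchanger, was at 0 to 4.92 CPM (median 0.129) against 0 to 1.28 CPM (median 0.0698), a difference of 1.02 ± 0.321 with an adjusted p of 0.0186, higher in 10 of 16 models. It missed the threshold without replicate 2 or 3 and without the model MMTV-PyMT.

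Library number moved with this comparison. In the 5 models whose antibody and chemotherapy tumours are adjacent in number (2153, 2208, 2224, 2250 and 9263, 15 tumours in each arm), no member passed in edgeR's test, 5 of 6 had an unadjusted p under 0.05, and the differences were 0.65 for Slc4a1, 1.19 for Alas2 and 1.30 to 1.48 for the globins, with adjusted p of 0.0963 to 0.497. None of 18288 genes passed in those 5 models in edgeR's test, and 3299 had an unadjusted p under 0.05 (DESeq2 was not run on them). In the 11 other models, set apart after seeing the data, the 6 genes all passed, with differences of 1.19 for Slc4a1 and 2.46 to 2.78 for the rest, where 3731 of 18422 genes passed. Whether the larger difference in the 11 models comes from those models or from the distance between libraries cannot be told apart.

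**Figure D3:**
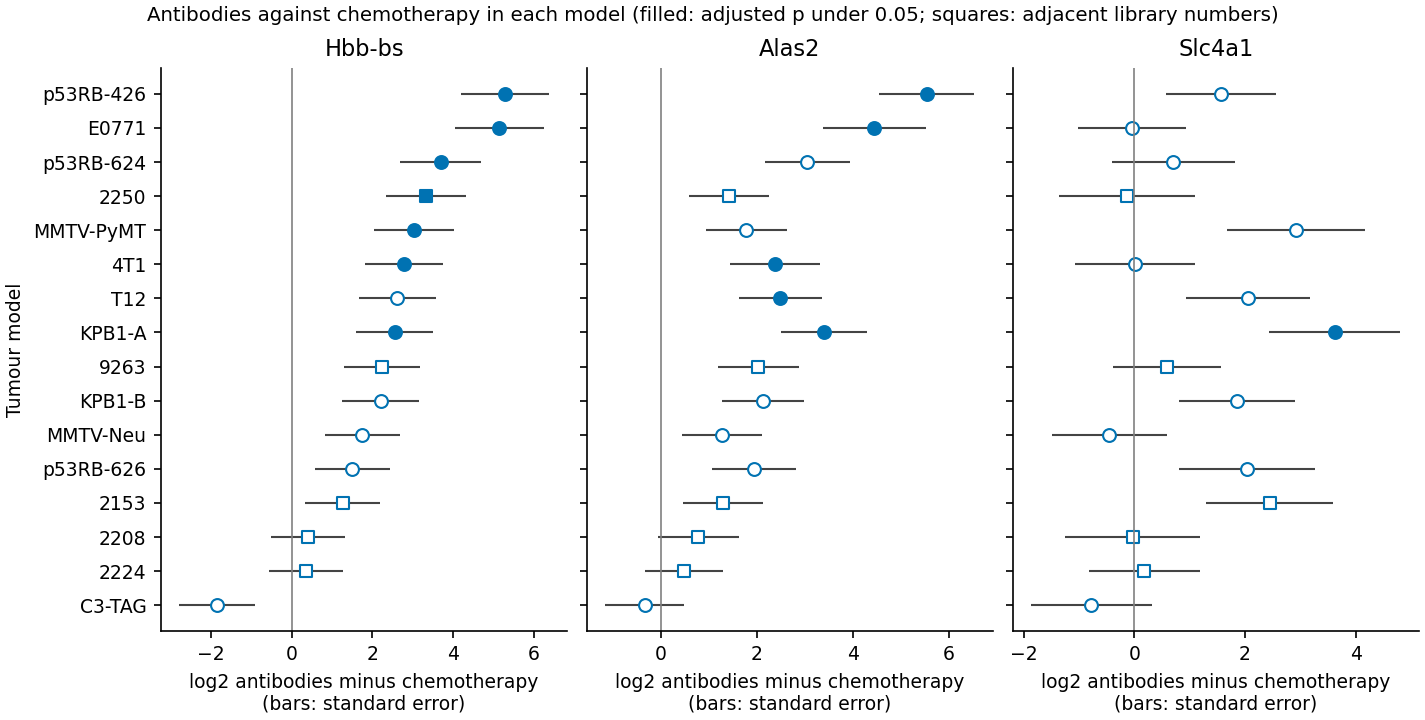
Fitted log2 difference between antibodies and chemotherapy for Hbb-bs, Alas2 and Slc4a1 in each of 16 models, with standard errors, filled where the adjusted p was under 0.05 and square where library numbers of the arms are adjacent. Hbb-bs runs from -1.85 in C3-TAG to 5.28 in p53RB-426, and 1 square is filled across the 3 genes.

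Model by model, with 1 fit over all 309 tumours, 29 of 96 member-by-model tests passed, all of them higher with antibodies, in 8 of 16 models. The background was 8.74% of 462848 gene-by-model tests. Calls fell in p53RB-426, E0771, KPB1-A and 4T1 (5 each), in 2250 (3), and in MMTV-PyMT, p53RB-624 and T12 (2 each), and 2250 was the only adjacent model among them. The tumours of the 2 arms did not overlap, with antibodies higher, in 11 of 16 models for Alas2, 8 for Hba-a1, Hba-a2 and Hbb-bs, 7 for Hbb-bt and 3 for Slc4a1, where 16.4% of gene-by-model pairs did so. With 1 replicate number left out, the refits made 12 to 22 calls in total, and the fit with only these 2 arms made 16. Whether they were the same calls was not compared. The size of the difference varied between models for 5 of the 6 genes, with adjusted interaction p of 0.000962 for Hba-a2 to 0.0441 for Alas2 in edgeR's F-test, and 0.371 for Slc4a1; the background was 75.5% of genes. Between 0 and 3 passed when 1 replicate number was left out.

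In p53RB-426, 5 of the 6 genes were called higher, all but Slc4a1. With antibodies the globin sums were 569.3, 9309 and 204.4 CPM, and with chemotherapy 57.2, 151.3 and 52.2 CPM, so the arms did not overlap and 1 antibody tumour was the highest of the series. Alas2 was at 6.31, 85.9 and 2.23 CPM against 0.462, 1.12 and 0.448 CPM, a difference of 5.54 ± 0.997 on the log2 scale with an adjusted p of 0.000153 in edgeR's test. Untreated p53RB-426 tumours had globin sums of 46.9, 45.2 and 185.4 CPM, all below the antibody tumours.

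In E0771 every chemotherapy tumour was low. The 3 chemotherapy tumours had globin sums of 4.175, 4.092 and 10.7 CPM, the 3 antibody tumours 83.4, 132.2 and 142.4 CPM, and the 1 untreated tumour 460.2 CPM. Alas2 had no count in 2 of the chemotherapy tumours and 11 counts in the third. The totals of these 3 libraries were 81.5 M, 91.3 M and 95.4 M counts. Slc4a1 did not follow: it was at 0.824, 0.604 and 0.491 CPM with chemotherapy and 0.523, 0.479 and 0.849 CPM with antibodies, and these overlapped. Hbb-bs differed by 5.15 ± 1.1 on the log2 scale (adjusted p 0.000339) and Slc4a1 by -0.05 ± 0.98 (adjusted p 1) in edgeR's test.

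In KPB1-A the antibody tumours had globin sums of 3641, 581.4 and 1095 CPM and the chemotherapy tumours 696.6, 99.1 and 63.7 CPM, and 1 chemotherapy tumour lay above the lowest antibody tumour. In 4T1 the sums were 485.1, 200.8 and 302.7 CPM against 32.4, 37.9 and 36.5 CPM, with no overlap. C3-TAG went the other way for the globins: the antibody tumours were at 102.4, 154.1 and 169.4 CPM and the chemotherapy tumours at 604.8, 64.3 and 1095 CPM. Those groups overlapped, and the difference of Hba-a1 in C3-TAG, -2.19 ± 0.946, did not pass (adjusted p 0.0612 in edgeR's test).

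**Figure D4:**
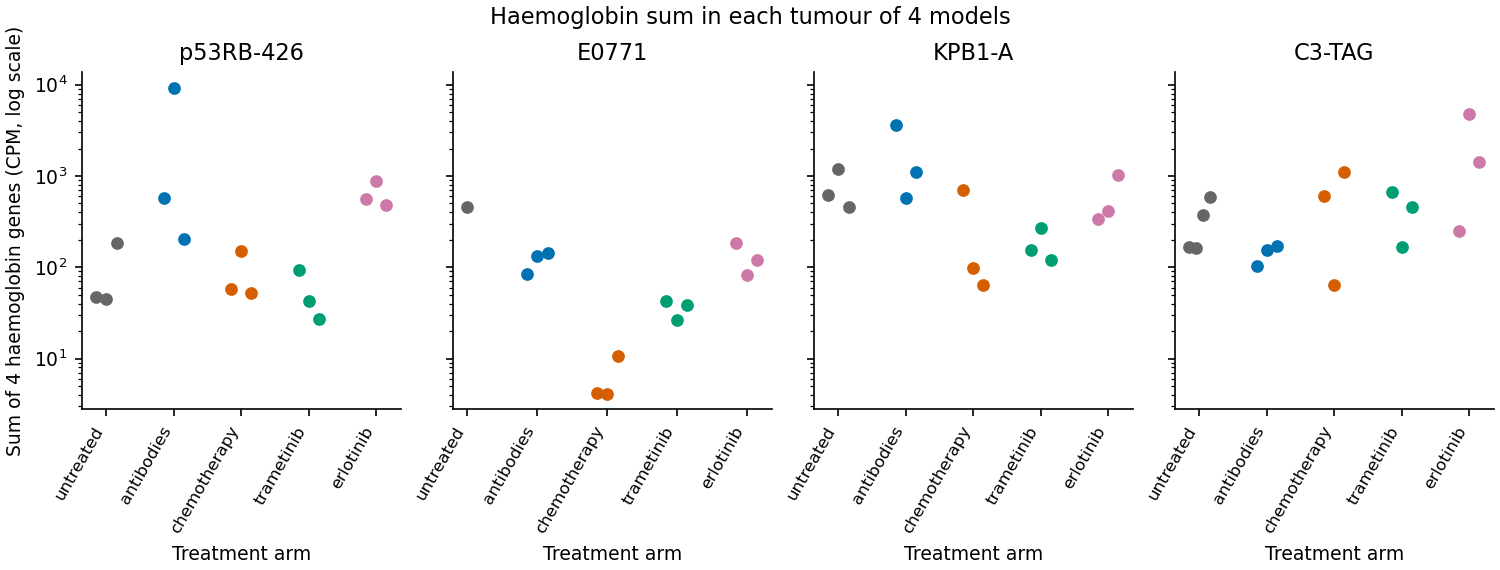
Globin sum in CPM on a log scale for every tumour of p53RB-426, E0771, KPB1-A and C3-TAG, by arm. The E0771 chemotherapy tumours lie at 4.09 to 10.7 CPM, below every other tumour of that model, and the C3-TAG chemotherapy tumours spread from 64.3 to 1095 CPM.

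Against untreated tumours the antibody arm showed no call. In 12 models (36 antibody and 41 untreated tumours) the differences were 0.39 for Hba-a2 to 0.81 for Hbb-bt on the log2 scale, 0 of 6 passed in edgeR's test or in DESeq2, and 3 of 6 had an unadjusted p under 0.05; 10.8% of genes passed. The members' interaction with model passed for 6 of 6 (background 50.0%). The 5 single-model calls, of 72, were all in p53RB-426 and all higher (background 2.85%), with Alas2 4.82 ± 0.96 above untreated on the log2 scale (adjusted p 0.000229 in edgeR's test). In E0771, where 1 untreated tumour was available, the antibody tumours lay below it in globin sum and Alas2 and above it in Slc4a1 (0.449 CPM untreated).

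Against untreated tumours in 16 models (48 and 54 tumours), 2 of the 6 genes passed as lower with chemotherapy, where 24.2% of all genes passed in either direction. The count is near that background and is not read as particular to these genes. Alas2 was at 0 to 8.26 CPM (median 1.44) with chemotherapy and at 0.291 to 43 CPM (median 2.12) untreated, and differed by -0.99 ± 0.323 on the log2 scale (adjusted p 0.0188 in edgeR's test). Hba-a2 differed by -1.15 ± 0.392 (adjusted p 0.0242). The other 4 had differences of -0.56 for Hbb-bt to -0.92 for Hbb-bs and adjusted p of 0.0609 to 0.298 in edgeR's test. No member passed when any 1 replicate number was left out, and with E0771, KPB25L, MMTV-PyMT or p53RB-624 left out 1 passed. Without KPB25L-UV 4 passed, and DESeq2 also called 4.

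Chemotherapy calls in single models went both ways. Of 96 tests, 15 were lower and 3 higher, in 5 models (background 9.16% in either direction). MMTV-PyMT had 6 lower calls, E0771 5 (against 1 untreated tumour) and KPB25L 4. In MMTV-PyMT the globin sums were 28.8, 70.9 and 24.7 CPM with chemotherapy against 471.3, 1986 and 558.7 CPM untreated, with no overlap. In KPB25L the chemotherapy tumours were at 21.4, 588.7 and 25.3 CPM, and the untreated group holds the tumour of 4135 CPM. The higher calls were 2 in KPB25L-UV and Slc4a1 in MMTV-Neu, where 2 of the 3 untreated MMTV-Neu tumours had no count. The chemotherapy tumours of KPB25L-UV are those with library names that begin with KPB25L. Without overlap, 2 to 4 of 15 models were lower for each gene, where the background was 12.3% of pairs. The interaction with model passed for 6 of 6 (background 65.7%).

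Trametinib lowered the genes in the same 16 models. Hbb-bs was at 8.4 to 243 CPM (median 39.2) against 12.5 to 1510 CPM (median 78.3) untreated, a difference of -1.06 ± 0.233 on the log2 scale (adjusted p 0.000151 in edgeR's test), and was lower in 13 of 16 models. Alas2 differed by -1.02 ± 0.249 (adjusted p 0.000602). All 5 genes that passed the filter on low counts were lower, from -0.96 for Hba-a2 to -1.21 for Hbb-bt, where 36.9% of genes passed; Slc4a1 did not pass the filter. Hba-a2 missed the threshold without replicate 2 (adjusted p 0.0642 in edgeR's test) and with 1 difference per model in limma (0.0619), its adjusted p over the alternatives being 0.00177 to 0.0642. In single models 8 of 96 tests passed, all lower, in KPB25L (3), E0771 (2), T12 (2) and MMTV-PyMT (1), against a background of 8.04%. That share is near the background. In KPB25L the trametinib tumours had globin sums of 112.5, 101.5 and 108.5 CPM, above 2 of the 3 untreated tumours and below the one of 4135 CPM. E0771 had 1 untreated tumour, and in T12 the trametinib tumours, at 267, 121.9 and 58.3 CPM, were compared with a group that holds the tumour of 2982 CPM. The interaction passed for 5 of 5 (background 79.0%), and within 11 models of adjacent numbers the differences were -1.30 to -1.42 and all 5 passed.

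Erlotinib showed no call over all models and large differences between them. The fitted differences from untreated tumours were 0.55 for Hba-a2 to 0.69 for Hbb-bs on the log2 scale, 0 of 6 passed in edgeR's test or in DESeq2, 2 of 6 had an unadjusted p under 0.05, and 5.74% of genes passed. Without replicate 1, 4 of 6 passed, all higher. The interaction passed for 6 of 6, with adjusted p of 2.92e-07 for Hbb-bt to 2.1e-05 for Slc4a1 (background 73.9%). Of 96 single-model tests, 10 were higher and 3 lower in 5 models (background 6.16%). KPB1-B had 5 higher calls: its erlotinib tumours had globin sums of 1204, 1380 and 1899 CPM, all above the 6 untreated tumours at 197.8 to 447 CPM. MMTV-Neu and p53RB-626 had 1 higher call each. C3-TAG had 3 higher calls, with erlotinib tumours at 249.7, 4781 and 1432 CPM and untreated ones at 161.6 to 593.4 CPM, which overlapped. The 3 lower calls were in KPB25L, where the untreated group holds the tumour of 4135 CPM.

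A direct comparison of trametinib with erlotinib was possible in 22 models (65 and 66 tumours), all with adjacent library numbers. The 5 genes that passed the filter were lower with trametinib, from -1.21 ± 0.189 for Alas2 to -1.45 ± 0.207 for Hbb-bt on the log2 scale, with adjusted p of 1.34e-08 for Hbb-bs to 1.57e-06 for Hba-a2 in edgeR's test, and 25.4% of genes passed. Hbb-bs was at 3.46 to 243 CPM (median 34.3) with trametinib and at 13.1 to 1800 CPM (median 93.8) with erlotinib, and was lower in 19 of 22 models. Without overlap, 9 to 11 of 22 models were lower for each of the 6 genes, where 14.5% of pairs were. In single models 7 of 132 tests passed, all lower (background 3.67%), of which 4 were in p53RB-426, 2 in p53RB-626 and 1, Slc4a1, in 2153. The interaction passed for 5 of 5 (background 68.5%). These comparisons share their untreated or erlotinib tumours with the ones above.

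**Figure D5:**
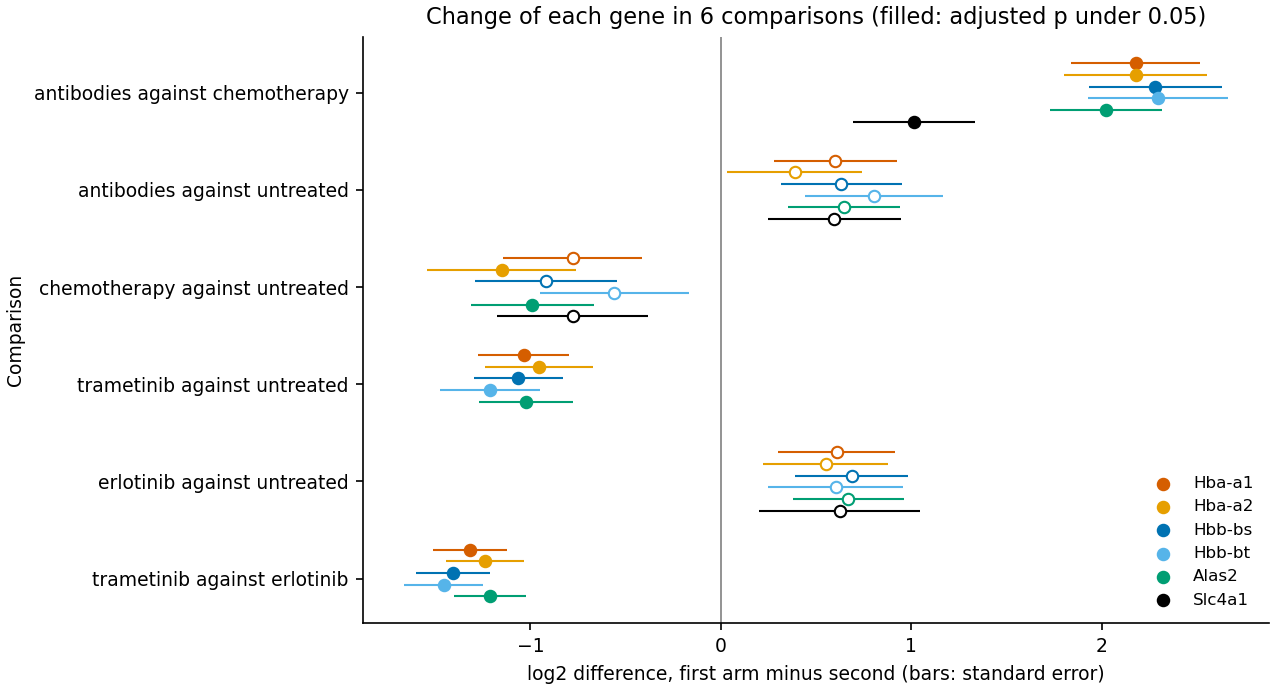
Fitted log2 difference of each gene in the 6 comparisons, first arm minus second, with standard errors and filled where the adjusted p was under 0.05. Antibodies against chemotherapy lies at 1.02 to 2.29, both trametinib comparisons lie below 0, and Slc4a1 is missing where it did not pass the filter on low counts.

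The other genes of the erythroid lineage that passed the filter on low counts did not move with the 6 as a body in antibodies against chemotherapy. Genes that did not pass it were not tested. Over all genes tested the median difference was 0.00 on the log2 scale. Of 12 genes of haem synthesis and mitochondrial import, 2 were higher and none lower (median 0.04), among them the transporter Abcb10 by 0.19 ± 0.0459. Of 16 erythroid membrane genes, 10 were tested. The glycophorin Gypc (-0.44 ± 0.133) and ankyrin Ank1 (-0.67 ± 0.218) were lower and none was higher. Of 8 erythroid transcription factors, 6 were tested. Lmo2 was lower (-0.47 ± 0.139), and none was higher. Of 15 genes of erythroid cytosol and maturation, 12 were tested. Of these, 4 were higher, Tfrc (0.53 ± 0.104) among them, and 2 lower, Rundc3a (-0.38 ± 0.116) among them. The embryonic and minor globins in the table did not pass the filter on low counts, and their sum over 8 genes was at most 0.775 CPM in any tumour. The defining red cell genes Rhag, Kel and Cldn13 had a median of 0 in every arm.

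Among the genes whose within-group log2 CPM was most like the mean of the 6 (Pearson r over 309 tumours, 16270 genes compared) were Hmox1, the haem-degrading enzyme, at 0.429, Nrgn at 0.419, S100a9, a neutrophil calcium-binding protein, at 0.372, Adm at 0.361, Gipr at 0.339 and Hilpda at 0.332. These points share library and depth. Tfrc, the transferrin receptor, which many dividing cells express, was higher with antibodies than with chemotherapy by 0.53 ± 0.104 (adjusted p 0.000229).

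Markers of other tissues moved with the same comparison, and their part in the result was not tested. Of 10 skeletal muscle genes, 10 were lower with antibodies than with chemotherapy (median -2.19), Myh4, a fast muscle myosin, among them at -3.07 ± 0.664, and 10 were lower than untreated (median -3.27). The sums that follow are over all 48 antibody and all 66 chemotherapy tumours. The muscle sum was 2.44 to 822 CPM (median 32.9) in the antibody arm and 3.92 to 12100 CPM (median 109) in the chemotherapy arm, and none of the 10 had a median of 0. Of 5 adipocyte genes tested, 5 were lower (median -1.95), with sums of 0.0598 to 89 CPM (median 2.72) against 0.00814 to 548 CPM (median 10.2). Of 9 macrophage genes tested, 5 were lower (Mertk by -0.68 ± 0.11), with sums of 176 to 5060 CPM (median 756) against 134 to 5020 CPM (median 1530). Of 14 endothelial genes, 4 were lower (Vwf by -0.81 ± 0.186), with sums of 161 to 1090 CPM (median 366) against 174 to 1070 CPM (median 498). Of 11 hypoxia genes, 10 were higher with antibodies than with chemotherapy, with a median of 0.52, among them Vegfa, the vascular growth factor, by 0.69 ± 0.13 and Pgk1 by 0.48 ± 0.0747. The hypoxia sum was 1730 to 7970 CPM (median 3520) with antibodies and 1130 to 9920 CPM (median 2490) with chemotherapy. Hypoxia genes were also higher with antibodies than untreated (8 of 11) and with trametinib than untreated (7 of 11).

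With 1 difference per model in limma, no gene of the lists other than the members passed in this comparison, while 5 of the 6 members did. The share of all genes passing in that fit is not given here, so this contrast is not read as particular to the members. Within groups these lists followed the 6 genes weakly. The correlation of single genes with the members' mean had a median of 0.17 for hypoxia (0.04 to 0.36), 0.09 for endothelial cells (-0.08 to 0.18), 0.10 for skeletal muscle and 0.25 for neutrophil genes (0.09 to 0.37). Of 14 endothelial genes, 9 were higher with chemotherapy than untreated and none lower. With trametinib, 13 of 14 were lower than untreated and 14 of 14 lower than with erlotinib. Whether vessel content bears on the globin levels was not tested. Of the other lists in antibodies against chemotherapy, 0 of 6 platelet genes passed in edgeR's test or in DESeq2 (0 with an unadjusted p under 0.05), 1 of 9 neutrophil genes was higher (S100a9, 0.80 ± 0.257) and 1 lower, 2 of 14 genes of haem and iron handling were lower, 2 of 8 T and NK cell genes and 1 of 3 B cell genes were lower, and 1 of 7 epithelial genes was higher.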

How the data were processed

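RNA-seq of 309 tumours was used as 2 tables. The estimated counts per gene come from Salmon and the authors' notes also name STAR, SAMtools and Picard on mm10, per the submitters' processing notes. No version is stated. A second deposited table holds a signal scaled to the 75th percentile of values above 0, times 1000, which was checked against the counts.

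Estimated counts were rounded, filtered by edgeR's filterByExpr and scaled by TMM. Arms were compared with edgeR 4.0.16 (quasi-likelihood test, R 4.3.3) with model as a term and Benjamini-Hochberg adjustment over all genes, threshold 0.05. Single models came from 1 fit of group means. Data were simulated for antibodies against chemotherapy with 18665 genes, 200 of them changed, and a dispersion of 0.4. In these data 96% of 2-fold and 100% of 4-fold changes were recovered and 3.45% of calls were false. The members had within-group standard deviations of 1.07 to 1.35 on the log2 scale, where the median gene had 0.33. The simulated rates hold for their setting and are not read as those of the members. Alternatives used DESeq2 1.42.0 and limma 3.58.1. Named genes are the members, the 3 genes of each list with the smallest p in antibodies against chemotherapy and the 8 genes most like the members. Some of them are not reported here. Replicate numbers follow accession order and only name tumours. Members and lists were chosen with earlier results of these data known. Protein sequences were not used here.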

Additional observations from a re-analysis of the deposited data

Results flagged for a closer look

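In 5 groups of 4 to 10 tumours, 30 values of the 6 genes by group were checked for a tumour far from the others, and 2 were found, where chance gives about 1 in 20. Slc4a1 was at 0.309 CPM in K14-TRT untreated replicate 1, with the nearest of the other 8 tumours at 0.131 CPM. Hba-a2 was at 8.38 CPM in KPB1-B untreated replicate 3, with the nearest of the other 5 at 23 CPM and the highest at 31.4 CPM.

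The difference between arms varied between models, by edgeR's interaction F-test, for 5 of 6 genes in antibodies against chemotherapy, 6 of 6 in antibodies against untreated, 6 of 6 in chemotherapy against untreated, 5 of 5 in trametinib against untreated, 6 of 6 in erlotinib against untreated and 5 of 5 in trametinib against erlotinib. At least 50.0% of all genes varied likewise in each comparison.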

How the results depend on the processing

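Of the 6 genes, antibodies against chemotherapy called 0 in adjacent tumours and 5 to 6 without 1 replicate. Antibodies against untreated called 1 with the authors' normalized table and 0 with any 1 replicate left out. Chemotherapy against untreated called 2 as reported, 0 with 1 difference per model, 4 with DESeq2, 4 with the normalized table, 1 in adjacent tumours, 1 with summed copies, 1 without E0771, KPB25L, MMTV-PyMT or p53RB-624, 4 without KPB25L-UV, and 0 with any 1 replicate left out. With copies summed, trametinib called 3 of 3 against untreated and 3 of 3 against erlotinib, and the difference between models 3 of 4, since fewer genes were tested. Without a replicate, trametinib called 4 to 5 against untreated (Hba-a2 lost without replicate 2), erlotinib against untreated 0 to 4, single models 12 to 22 (16 with these arms alone) and the difference between models 0 to 3. In adjacent tumours the sign turned for Ank1 (0.13) in antibodies against chemotherapy, Hba-a1 (-0.12) and Hba-a2 (-0.07) in antibodies against untreated, and Slc4a1 (-0.11) in erlotinib against untreated. The cause was not tested. No paired analysis was possible because the labels carry no replicate numbers. Slc4a1 had no count in 51 tumours, so its differences rest on few reads.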
